A study of Mus musculus with 6 samples.

Results

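Chemosensory receptor genes were described here as a set of promoters, across chromatin immunoprecipitation on promoter arrays (ChIP-chip) in differentiated mouse C2C12 cells. The set held every non-control probe whose array annotation names a gene symbol beginning with Olfr, V1r, V2r, Vmn or Tas2r, a choice that used no measured value. Of 471870 probes kept on the arrays, 22720 met it, and they named 1034 receptor genes. Measurements were made over windows, each the mean of at least 3 probes: a central probe and all others whose midpoints lay no more than 500 bp away. By this definition 958 receptor genes of 16533 genes in all had a window, and 19978 windows of 428057 were receptor windows. The genes with a window were 827 of 884 odorant receptor (Olfr) genes, 96 of 113 V1r genes, 2 of 4 V2r genes and 33 of 33 bitter taste receptor (Tas2r) genes. No symbol on the arrays began with Vmn, the current name of the vomeronasal receptors.

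C2C12 cells are mouse myoblasts, and they form multinucleated myotubes once serum is lowered. The TEAD4 group had 2 samples of cells given Flag-HA-TEAD4 by a retroviral vector, and the control group had 1 sample of cells with the empty vector. All cells had been selected in puromycin, kept for 5 days in 2% horse serum and fixed for 10 min in 0.4% formaldehyde, and anti-Flag antibody was used for the precipitation. The tagged protein came from the vector, and the control cells held no tagged TEAD4. Nothing in the labels says that the 2 TEAD4 samples, named as duplicates, came from separate cultures, so p-values measure only the spread between them, which may be technical.

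Odorant receptors, vomeronasal receptors and bitter taste receptors are families of G protein-coupled receptors, most of which lie in tandem clusters. An olfactory sensory neuron uses a single odorant receptor allele, and in other cell types these clusters are generally held in repressive chromatin. V1r and V2r genes encode the pheromone receptors of the vomeronasal organ, and Tas2r genes encode receptors for bitter compounds in taste cells. TEAD4 is a DNA-binding protein of the TEAD family, which binds the M-CAT element GGAATG and recruits YAP and TAZ. Neither transcripts nor histone marks were measured in these samples, so whether the receptor promoters were silent in these cells was not tested. The values below are the anti-Flag signal over input.

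The promoters of 6 receptor genes are shown first. Olfr459, Olfr456 and Tas2r110 each had a window past 2-fold over input in TEAD4 samples 1 and 2, and a RefSeq promoter was matched to them. Olfr16, which encodes the lyral receptor MOR23 of olfactory neurons and sperm, is a known receptor, and V1rf5 and V2r10 had the highest TEAD4 window of their families. Each sequence runs 5′ to 3′ from 250 bases before to 50 after the start in RefSeq's GRCm38.p6, and capitals mark the letters GGAATG. Brackets give the current symbol where it differs from that of the array.
Olfr459: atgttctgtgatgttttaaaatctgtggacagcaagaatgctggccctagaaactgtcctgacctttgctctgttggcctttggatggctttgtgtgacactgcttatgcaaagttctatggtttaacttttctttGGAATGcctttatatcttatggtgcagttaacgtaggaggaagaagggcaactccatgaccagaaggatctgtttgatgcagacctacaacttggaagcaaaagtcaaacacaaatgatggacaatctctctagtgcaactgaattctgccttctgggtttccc
Olfr456: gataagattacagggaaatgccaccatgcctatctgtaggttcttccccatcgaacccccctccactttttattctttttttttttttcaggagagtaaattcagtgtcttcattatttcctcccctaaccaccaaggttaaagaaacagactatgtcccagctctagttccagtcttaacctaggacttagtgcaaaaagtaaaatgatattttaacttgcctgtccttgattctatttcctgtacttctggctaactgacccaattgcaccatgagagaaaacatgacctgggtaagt
Tas2r110: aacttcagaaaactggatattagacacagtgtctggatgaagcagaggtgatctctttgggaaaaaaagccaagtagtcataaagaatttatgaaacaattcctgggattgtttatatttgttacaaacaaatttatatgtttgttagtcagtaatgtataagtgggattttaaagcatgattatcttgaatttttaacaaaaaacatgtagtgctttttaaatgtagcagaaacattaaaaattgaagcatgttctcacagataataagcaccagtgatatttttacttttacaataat
Olfr16: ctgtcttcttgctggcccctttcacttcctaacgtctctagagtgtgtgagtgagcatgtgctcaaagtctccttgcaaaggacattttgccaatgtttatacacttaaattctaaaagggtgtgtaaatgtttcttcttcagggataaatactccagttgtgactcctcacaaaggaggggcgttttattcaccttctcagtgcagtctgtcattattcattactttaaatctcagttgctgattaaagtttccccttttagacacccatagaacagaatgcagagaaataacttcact
V1rf5 [Vmn1r233]: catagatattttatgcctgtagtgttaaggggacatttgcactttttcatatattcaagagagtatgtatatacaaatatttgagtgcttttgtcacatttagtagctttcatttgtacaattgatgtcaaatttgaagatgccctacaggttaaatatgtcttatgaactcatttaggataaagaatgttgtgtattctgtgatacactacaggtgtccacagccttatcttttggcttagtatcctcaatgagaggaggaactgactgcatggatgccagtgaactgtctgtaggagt
V2r10 [Vmn2r89]: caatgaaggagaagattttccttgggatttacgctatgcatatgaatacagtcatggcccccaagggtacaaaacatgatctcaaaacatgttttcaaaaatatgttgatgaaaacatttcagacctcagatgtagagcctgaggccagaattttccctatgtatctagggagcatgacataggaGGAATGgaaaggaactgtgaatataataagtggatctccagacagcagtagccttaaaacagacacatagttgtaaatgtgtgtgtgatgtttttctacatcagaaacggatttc
In GRCm38.p6 these stretches lie at chr6:41772248-41772547 on the minus strand for Olfr459 and chr6:42487165-42487464 on the minus strand for Olfr456. Those of Tas2r110 and Olfr16 lie at chr6:132867758-132868057 and chr1:172956518-172956817, both on the plus strand. V1rf5 lies at chr17:20994637-20994936 on the minus strand and V2r10 at chr14:51451712-51452011 on the plus strand. Of the 6, Olfr459 and V2r10 held the motif, at base 137 and base 186 of the printed stretch. The top TEAD4 windows of Olfr459, Olfr456 and Tas2r110 were centred 2089, 3071 and 523 bp upstream of the array's annotated start. The printed stretches begin 250 bases before the RefSeq start, so the motif marked in Olfr459 is not placed in its top window. The GC content was 42.7% in Olfr459, 40% in Olfr456, 28.7% in Tas2r110, 40% in Olfr16, 35.7% in V1rf5 and 38.7% in V2r10. Of all these, Tas2r110 and V1rf5 held no CpG. The array coordinates given further on are a separate set, since no label or header names the build of the probe positions, and are printed as the files give them.

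The TEAD4 arrays were brighter than the control arrays in the precipitated (IP) channel. The median IP spot lay between 3.62 and 5.41 times its local background on the 4 TEAD4 arrays, and at 1.84 and 2.04 times on the control arrays. Over all windows the SD was 0.38 and 0.40 in the TEAD4 samples, against 1.04 for the control. Extended dynamic range was used to extract the control arrays and not the TEAD4 arrays, and each sample was scanned on its own day, so scan day and group cannot be told apart. The part of these differences in the results was not tested.

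Receptor promoters gave less anti-Flag signal over input than other promoters, and they did so in the control as well as in both TEAD4 samples. Values are log2 of IP over input, with each array's median probe set to 0. The median receptor window was -0.36 in TEAD4 sample 1, -0.19 in TEAD4 sample 2 and -0.41 in the control. The median of all other windows was 0.01, 0.00 and 0.29 in the same order. Of receptor windows, 87.7%, 74.7% and 68.9% lay below 0, against 49.3%, 49.8% and 38.9% of the others. The sign was below 0 in both TEAD4 samples for 68.3% of receptor windows and 33.2% of others, and in all 3 samples for 48.7% and 18.2%.

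Counted by gene, the same order held. The median window of a gene was below 0 in both TEAD4 samples for 809 of 958 receptor genes (84.4%) and for 31.7% of other genes. It was below 0 in all 3 samples for 663 receptor genes (69.2%) and for 15.8% of other genes. The receptor windows were lower than the others by 0.28 in the TEAD4 mean, with 0.37 in sample 1 and 0.19 in sample 2, and by 0.70 in the control. The spread between the 2 TEAD4 samples was a median SD of 0.19 per receptor window and 0.15 per other window. No test over samples was made of these medians. Each sample gives 1 difference between receptor and other windows, and only 2 TEAD4 samples and 1 control sample were measured.

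The size of the difference in the control depended on the background correction. With normexp, which models the background of the raw spots, the control difference was -0.038, while the TEAD4 difference was -0.22. With loess, which removes the dependence on brightness within an array, the control difference was -0.37 and the TEAD4 difference -0.24.

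Receptor spots were dim in both channels, and more so in the IP channel. On design 1 the median processed intensity of receptor probes in the IP channel was 548, 658 and 254 in TEAD4 sample 1, TEAD4 sample 2 and the control, against 886, 922 and 528 over all probes. In the input channel it was 696, 734 and 596, against 900, 924 and 790. On both designs the median receptor spot was less bright than the median spot of all probes in each channel of each sample. In the control's IP channel the median receptor spot was 1.46 times its background on design 1 and 1.54 times on design 2. There 85.6% and 88.6% of receptor probes were well above background, against 94.4% and 95.6% of all probes. In the IP channel of the TEAD4 samples at least 99.5% of receptor probes were.

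The Olfr, V1r and Tas2r families each had a median below 0 in all 3 samples. Of these, V1r windows had the lowest medians, at -0.41 in TEAD4 sample 1, -0.24 in sample 2 and -0.49 in the control. Olfr windows were at -0.36, -0.19 and -0.41, and Tas2r windows at -0.28, -0.13 and -0.28. In the TEAD4 samples these families differed by less than the median SD of a single receptor window between the samples. That SD does not measure the spread of a family median, and no test was made between the families. The V2r genes had only 3 windows, with medians of -0.74 and -0.17 in the TEAD4 samples and 0.64 in the control. The share of genes whose median window was below 0 in all 3 samples was 69.2% in Olfr, 71.9% in V1r and 63.6% in Tas2r.

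**Figure D1:**
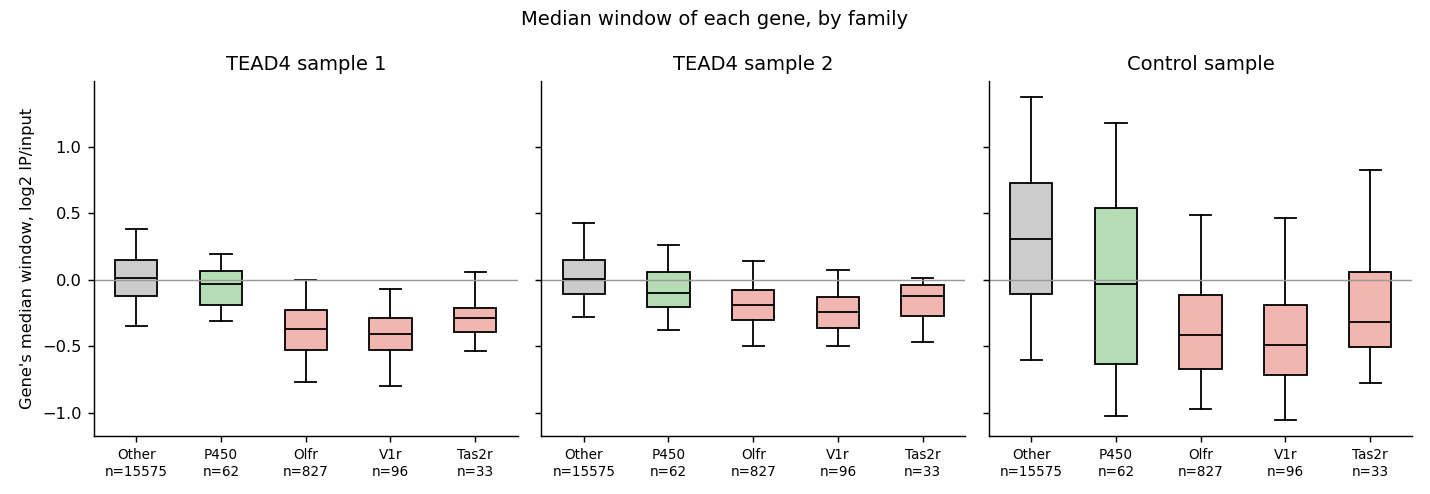
The vertical axis gives the log2 IP/input of each gene's median window, in 3 panels for the 3 samples, for other genes, cytochrome P450 genes and the Olfr, V1r and Tas2r families. Boxes span the middle 50% of genes with the median as a line, and whiskers reach from the 5th to the 95th percentile; the medians of the receptor families lie below 0 in every panel, at -0.37, -0.40 and -0.29 in TEAD4 sample 1.

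Another large family served for comparison. Cytochrome P450 (Cyp) genes encode oxidising enzymes, many of them used mainly in liver, gut or endocrine tissue. Their 62 genes held 1085 windows with medians of -0.06 and -0.10 in the TEAD4 samples and 0.05 in the control. The 11780 windows with no annotated gene had medians of -0.10, -0.07 and 0.06. In each of the 3 samples both sets lay between the receptor windows and all other windows.

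Receptor genes had little of the rise at the gene start that other genes had. Within 500 bp of the annotated start, other genes were at 0.20 and 0.16 in the TEAD4 samples and at 1.25 in the control. Beyond 2000 bp they were at -0.08, -0.06 and 0.06. Receptor genes were at -0.30, -0.20 and -0.33 within 500 bp (762 genes), and at -0.35, -0.18 and -0.43 beyond 2000 bp. Cyp genes within 500 bp were at 0.00, -0.02 and 0.28.

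**Figure D2:**
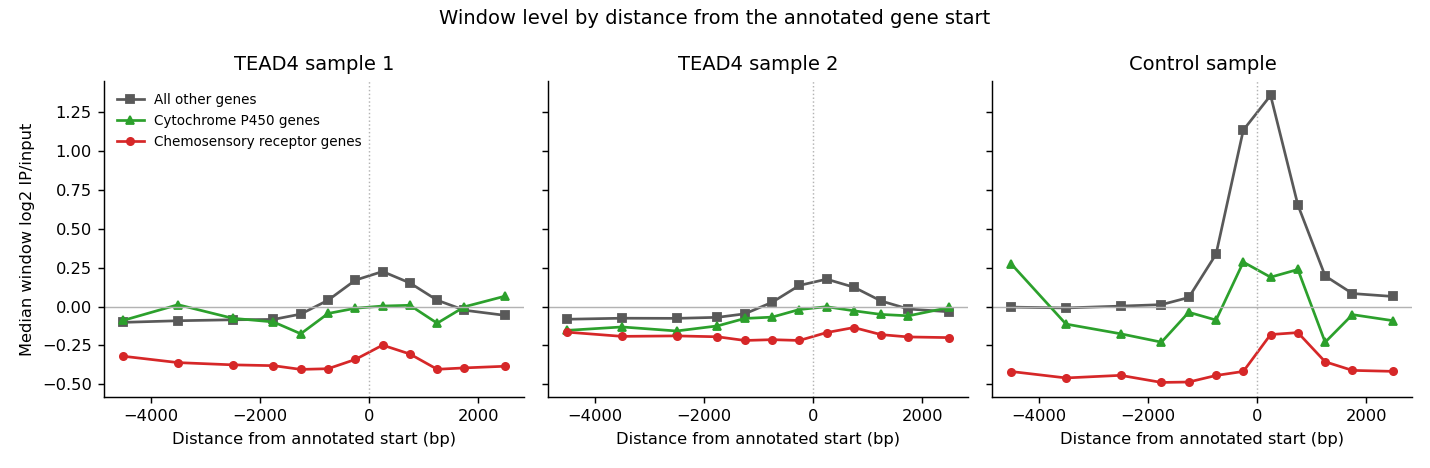
The horizontal axis is the distance of the window's probe from the annotated gene start in bp (negative is upstream) and the vertical axis the median window log2 IP/input, in 1 panel per sample. Other genes form a peak at the start, reaching 1.36 in the control between 0 and 500 bp downstream, while receptor genes stay between -0.49 and -0.17 in the control at every distance.

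Within the receptor set the windows just downstream of the start were slightly higher. Receptor windows 0 to 500 bp downstream were at -0.25, -0.17 and -0.18, and those 1000 to 1500 bp upstream at -0.40, -0.22 and -0.49. In the array's annotation classes, windows inside receptor genes (2423) were at -0.28, -0.16 and -0.16, those in promoters (13621) at -0.36, -0.20 and -0.45 and those downstream (3375) at -0.40, -0.19 and -0.39. Windows that also name another gene (96) were at -0.28, -0.23 and -0.70. The 463 windows that name 2 or more receptor genes were at -0.33, -0.18 and -0.38, close to the whole set.

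The receptor promoters were poor in GC and in CpG. A RefSeq promoter was matched for 805 of the 958 genes, giving 803 distinct promoters. Their median GC content was 35.7%, against 53.0% over all other promoters, and their median number of CpG was 1 against 8. A promoter with no CpG was held by 31.9% of them and by 4.88% of others. The families were close to each other, with a median GC content of 35.7% in Olfr, 35.2% in V1r and 37.3% in Tas2r.

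Start windows were higher where the promoter held more GC, in receptor genes as in other genes, though in TEAD4 sample 2 the receptor medians ran only from -0.23 below 35% to -0.11 at 50 to 55%. Among promoters of 35 to 40% GC, the median start window of 189 receptor genes was -0.35, -0.21 and -0.43 in TEAD4 sample 1, sample 2 and the control. For 239 other genes of the same GC range it was -0.22, -0.04 and -0.10. At 40 to 45% GC the values were -0.18, -0.15 and -0.27 for 104 receptor genes, and -0.09, -0.02 and 0.05 for 633 others. In each of the 5 ranges with 10 or more receptor genes, the receptor median was below that of other genes in all 3 samples. The distance was smaller than over all promoters, where receptor genes were at -0.33, -0.20 and -0.37 (651 genes) and others at 0.20, 0.17 and 1.30. The difference between receptors and others in the same GC range was not tested over samples.

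**Figure D3:**
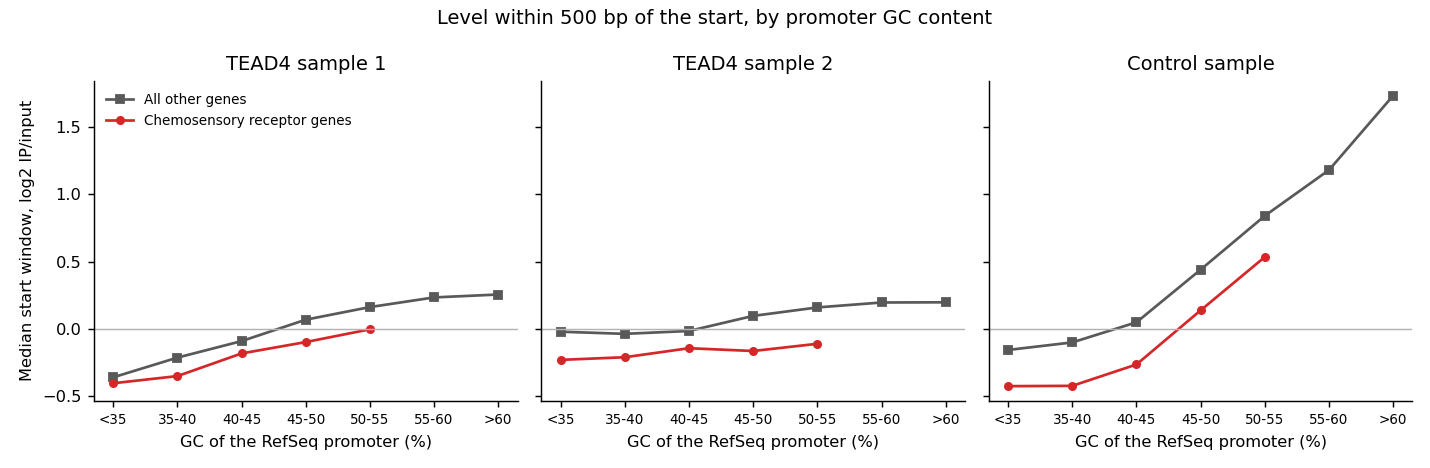
The horizontal axis is the GC content of the RefSeq promoter in ranges of percent and the vertical axis the median log2 IP/input of start windows, which lie within 500 bp of the annotated start, for receptor genes and all other genes in each sample. Ranges with under 10 genes are not drawn; in the control the other genes climb from -0.16 below 35% to 1.74 above 60%, and receptor genes from -0.43 to 0.53 at 50 to 55%.

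Across receptor genes, the GC content of the promoter and the start window had a Pearson correlation of 0.38 in TEAD4 sample 1, 0.03 in sample 2 and 0.20 in the control (651 genes, which share the same arrays). With no CpG in the promoter, 208 receptor genes were at -0.36, -0.21 and -0.40 and 164 other genes at -0.13, -0.03 and 0.00.

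The TEAD motif was as frequent in receptor promoters as elsewhere. GGAATG, or CATTCC on the other strand, was found in 14.4% of the 803 receptor promoters and in 14.6% of all 27025 promoters of this length. The start windows of 95 receptor genes with the motif were at -0.29, -0.17 and -0.34, and those of 556 without it at -0.33, -0.21 and -0.38. In both TEAD4 samples the difference was smaller than the median SD of a single receptor window between them. That SD does not measure the spread of a group median, and the difference was not tested. The letters TAATTA, a core bound by homeodomain proteins such as Lhx2 and the same on both strands, were found in 17.1% of receptor promoters and 5.31% of all. These letters hold no G or C, and receptor promoters are poorer in GC. Shares at equal GC were not compared, so the part of base composition was not tested. The O/E palindrome, bound by Ebf proteins, was found in 0.623% and 0.914%. A match describes the letters only.

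Few receptor genes were enriched in both TEAD4 samples. By the rule that the same window is at least 2-fold over input in each, 4 of 958 receptor genes passed, or 0.418%, against 5.2% of all genes. They were 3 of 827 Olfr genes, 1 of 33 Tas2r genes, 0 of 96 V1r genes and 0 of 2 V2r genes. No Cyp gene of 62 passed either. The opposite rule, under which a window lies 2-fold or more below input in each TEAD4 sample, was met by 20 receptor genes (2.09%) against 0.327% of all genes. These 20 were among only 54 such genes on the arrays.

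The strongest of the 4 in the mean was Olfr459, an odorant receptor gene. Its window of 3 probes at chr6:41703964-41704348, centred 2089 bp upstream of the annotated start, was at 1.40 and 2.60 in TEAD4 samples 1 and 2 and at 2.74 in the control. The mean was 2.00 ± 0.85 (SD, n = 2; limma against input, adjusted p = 0.000421), and the control lay above both TEAD4 samples. Here and for the genes below, the adjusted p is that of the gene over all its windows and not of the single window. Over all 29 windows of the gene the medians were 0.02, 0.15 and 0.05, and 2 windows passed.

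Tas2r110, a bitter taste receptor gene, had 5 probes at chr6:132832861-132833558, 523 bp upstream. The window was at 1.12 and 2.53 in the TEAD4 samples and at 2.39 in the control (mean 1.83 ± 1.00, SD, n = 2; limma against input, adjusted p = 0.00111). The control lay between the TEAD4 samples. The gene's 22 windows had a median of 0.00, -0.04 and 1.16, so its control level was high over much of the promoter.

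Olfr456 was the only one of the 4 whose control was low. Its window of 3 probes at chr6:42419567-42419899, 3071 bp upstream, was at 1.72 and 1.45 in the TEAD4 samples and at -1.48 in the control. The TEAD4 mean was 1.59 ± 0.19 (SD, n = 2; limma against input, adjusted p = 0.000229). The TEAD4 minus control difference was 3.07, with 1 control sample and so no replicate check on its side. The enrichment was narrow, with 2 of 31 windows passing and gene medians of -0.16, -0.15 and -0.92. With windows reaching 1000 bp to each side its top window was 0.58, and with at least 5 probes it was 1.10.

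Olfr684 had 5 probes at chr7:105032621-105033350, 1567 bp upstream, at 1.05 and 2.03 in the TEAD4 samples and 1.89 in the control. The mean was 1.54 ± 0.69 (SD, n = 2; limma against input, adjusted p = 0.000903), and 1 of its 25 windows passed. Thus Olfr459, Tas2r110 and Olfr684 had a control above the lower TEAD4 sample, and Olfr456 alone was 2-fold or more above the control, as well as above input, in each TEAD4 sample. The share of all genes that met that double demand was 2.55%. The array annotation classes all 4 windows as promoter. Of them, 3 lay on chromosome 6, and those of Olfr459 and Olfr456 in the same receptor cluster.

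Just under the threshold stood a window shared by Olfr570 and Olfr569 on chromosome 7, which were singled out after their values were seen. It was at 0.999 and 1.44 in the TEAD4 samples and at 2.65 in the control. For Olfr877 and Olfr284, also singled out so, the TEAD4 sample 1 value passed and that of sample 2 did not: Olfr877 was at 1.07 and 0.65 with 0.78 in the control, and Olfr284 at 1.04 and 0.63 with -0.32.

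The 2 TEAD4 samples differed in how many receptor genes passed. In sample 1 taken by itself, 6 receptor genes (0.626%) passed 2-fold over input, against 8.04% of all genes. In sample 2 taken by itself, 90 (9.39%) did, against 15.5% of all genes. Both counts include the 4 genes that passed in both samples. Of the 314 receptor windows past the threshold in sample 2, 307 did not pass in sample 1. In those 314 windows the median of sample 1 was 0.12 and that of the control 0.42. Windows of only 3 probes made up 20.1% of them and 17.3% of all receptor windows. By family, the genes past 2-fold in sample 2 were 79 Olfr (9.55%), 8 Tas2r (24.2%) and 3 V1r genes (3.1%). The Tas2r share was thus above that of all genes, and the Olfr and V1r shares were below it.

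Several of the highest receptor windows in the mean rested on sample 2. Olfr889 was at 0.56 and 3.21 in samples 1 and 2 with 0.95 in the control, and Olfr731 at 0.70 and 2.85 with 2.23. The bitter taste receptor genes Tas2r134 and Tas2r121 were at 0.74 and 2.52, and at 0.86 and 1.97, with 2.06 and 1.06 in the control. Among the vomeronasal receptor genes, V1rf5 was at 0.14 and 1.26 with -1.21 in the control, and V1rg1 at -0.03 and 1.36 with 0.71. V1rb3 was the exception, at 0.67 and 0.61 with 0.53 in the control. Across receptor windows the 2 TEAD4 samples had a Pearson correlation of 0.37, and across other windows 0.57; neighbouring windows share probes.

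**Figure D4:**
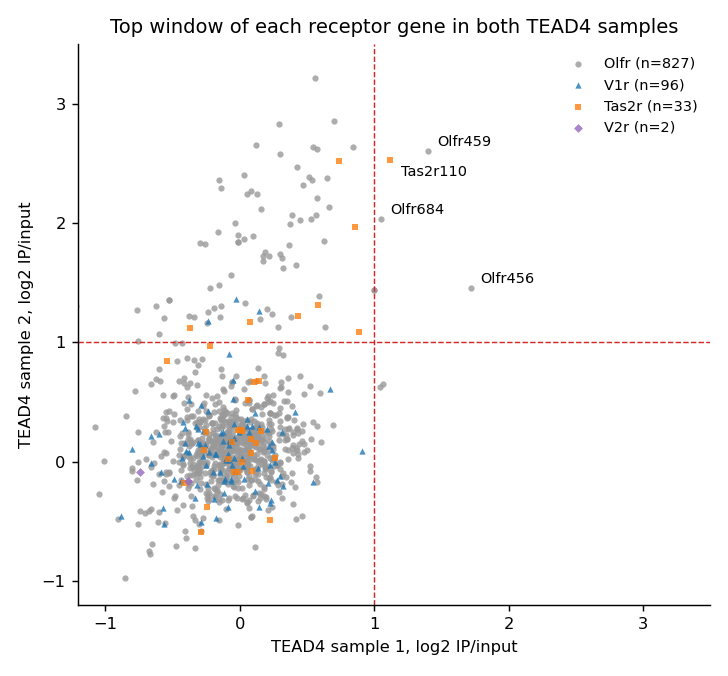
Each point is 1 of 958 receptor genes, placed by the log2 IP/input of its top window (highest TEAD4 mean) in TEAD4 sample 1 (horizontal axis) and sample 2 (vertical axis), with dashed lines at 2-fold. The 4 named genes lie past both lines, and further Olfr, Tas2r and V1r genes lie past the line of sample 2 alone.

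By limma, which tested every window against input with a variance pooled over windows, receptor genes were called lower more often than higher. Of 958 receptor genes, 437 (45.6%) were called lower and 37 (3.86%) higher, against 11.8% and 23.9% of all genes (adjusted p from limma, two-sided, threshold 0.05, direction from the gene's window of lowest p). In all, 1949 genes were called lower. Among families, 384 of 827 Olfr genes, 45 of 96 V1r genes, 7 of 33 Tas2r genes and 1 of 2 V2r genes were called lower, and 31, 1, 5 and 0 higher. Of Cyp genes 6 were called lower and 5 higher. With normexp 36 receptor genes (3.76%) were called lower and 11 (1.15%) higher, against 0.484% and 14.3% of all genes.

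The lowest windows reached well below input in each TEAD4 sample. The 3 receptor genes with the lowest mean of such a window were singled out after their values were seen. Olfr130 was at -1.31 and -1.66 in the TEAD4 samples with 1.57 in the control, Olfr1322 at -1.41 and -1.51 with -1.68, and Olfr195 at -1.68 and -1.25 with 0.10. Over the 20 genes with such a window, the control was below 0 in 14, with a median of -0.46 and a range from -1.68 to 3.30. By top window, the lowest genes of the families with more than 2 genes were Olfr176 at -0.85 and -0.98 with -0.99 in the control, V1rc8 at -0.89 and -0.46 with -0.84, and Tas2r140 at -0.29 and -0.59 with -0.85. Limma called Olfr176 and V1rc8 lower than input (adjusted p = 0.000601 and 0.0102) and did not call Tas2r140 (0.0526). These 3 genes had 1, 3 and 3 windows. The V2r genes were at -0.38 and -0.17 with 0.87 for V2r10, which limma called lower (adjusted p = 0.0395), and at -0.74 and -0.09 with 0.64 for V2r16, which it did not (0.0871).

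In the control, where no tagged TEAD4 was present, receptor genes passed the threshold less often than genes in all. A window 2-fold or more over input was held by 427 receptor genes (44.6%), against 85.6% of all genes, and one 2-fold or more below it by 663 (69.2%), against 44.1%. The highest control windows were those of Olfr806 at 4.49, Olfr1209 at 3.90 and Olfr458 at 3.90. The TEAD4 samples were near or below input there, at -0.74 and -0.39 for Olfr806, -0.41 and 0.04 for Olfr1209 and -0.37 and -0.17 for Olfr458. The control has 1 sample, so these windows have no replicate check. With normexp 65 receptor genes passed 2-fold in the control, against 23.0% of all genes.

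Against the control, the calls of receptor genes and their order against all genes depended on the processing. Limma called 266 receptor genes (27.8%) higher in TEAD4 than in the control and 500 (52.2%) lower, against 12.4% and 81.0% of all genes. These calls assume that the 1 control sample varies like the TEAD4 samples, while its windows had an SD of 1.04 against 0.38 and 0.40, so they are given as a description. Without centring the arrays 746 (77.9%) were higher and 164 (17.1%) lower, against 50.5% and 46.0% of all genes. With normexp 9 (0.939%) were higher and 71 (7.41%) lower, against 3.96% and 10.5%, so the order turned for the higher calls. With each array scaled to the same spread 1 (0.104%) was higher and 10 (1.04%) lower, against 0.774% and 0.200%, so it turned in both directions.

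The windows with the largest excess over the control often had a low control value. After Olfr456 came Olfr290, at 0.51 and 2.38 in TEAD4 against -0.68 in the control, a difference of 2.13. Olfr1339 was at -0.35 and -0.24 against -2.37, Olfr223 at -0.38 and 0.46 against -2.01, and Olfr979 at -0.01 and 1.84 against -1.10, with differences of 2.08, 2.05 and 2.02. Olfr456 was thus the only one of these 5 genes with both TEAD4 samples past 2-fold. The lowest differences were -5.06 at Olfr806 and -4.63 at Tas2r120, a bitter taste receptor gene at -0.65 and -1.04 with 3.78 in the control.

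The low level was shared by the large receptor clusters. A gap of over 1 Mb between neighbouring receptor genes, each placed at its median window start, was taken as a border. The genes fell into 58 clusters, of which 26 held 10 or more genes and 858 genes together. All 26 had a median below 0 in both TEAD4 samples, and 25 did in the control. The cluster medians ran from -0.59 to -0.13 in TEAD4 sample 1, from -0.30 to -0.06 in sample 2 and from -0.59 to 0.08 in the control. Each of the 26 was below the median of all other windows in each sample, while some of the smaller clusters were not. On each of 17 chromosomes, the receptor median was below that of the other windows of the chromosome in each sample. The smallest difference, -0.039, was in the control. Chromosome 5 was not among them, and its 1 receptor window, that of V2r16, was at -0.74, -0.09 and 0.64.

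**Figure D5:**
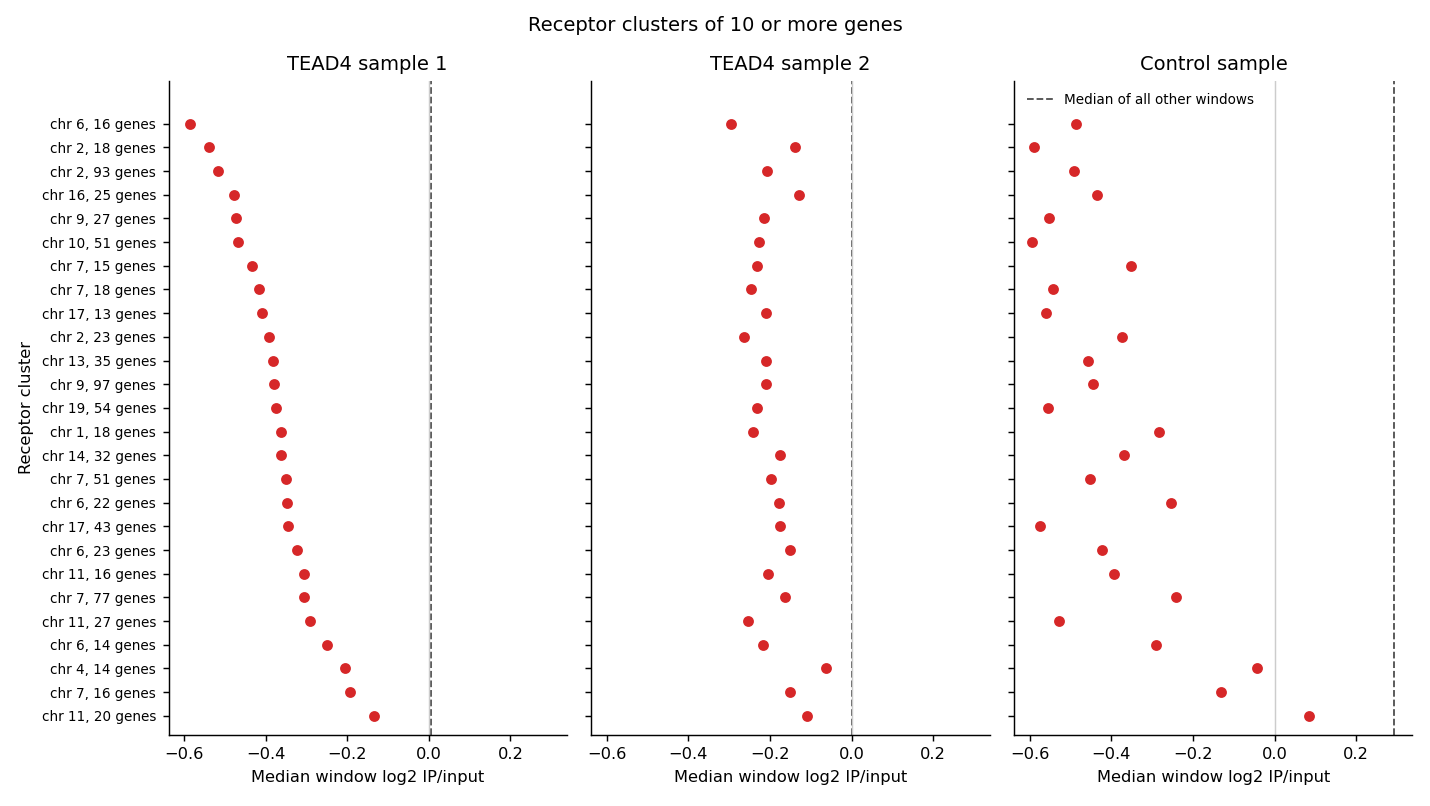
Each row is 1 of the 26 receptor clusters of 10 or more genes, labelled by chromosome and number of genes and ordered by TEAD4 sample 1; the horizontal axis is the median window log2 IP/input, in 1 panel per sample. The dashed line is the median of all other windows, at 0.01, 0.00 and 0.29, and every cluster lies to its left.

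The lowest large cluster in both TEAD4 samples was one of 16 V1r genes on chromosome 6, from V1rc19 to V1rc25, at -0.59 and -0.30 with -0.49 in the control. Of its genes, 10 were called lower than input by limma. The cluster of 93 Olfr genes on chromosome 2 was at -0.52, -0.21 and -0.49, with 51 genes called lower, and that of 97 Olfr genes on chromosome 9 at -0.38, -0.21 and -0.44. The highest in TEAD4 sample 1 and in the control was one of 20 Olfr genes on chromosome 11, at -0.13, -0.11 and 0.08. A cluster of 14 Olfr genes on chromosome 4, at -0.20, -0.06 and -0.04, had no gene called in either direction.

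Clusters with more GC had higher medians. Over the 26 clusters the median promoter GC content ran from 30.3% to 45.3%, and its Pearson correlation with the cluster median was 0.83 in TEAD4 sample 1, 0.60 in sample 2 and 0.82 in the control. The clusters on chromosomes 4 and 11 named above had 45.3% and 42.3% GC, and the V1r cluster on chromosome 6 had 31.3%. The clusters are described on the same 6 arrays, and the part of base composition in their order was not tested. Genes in clusters of 10 or more were at -0.38, -0.20 and -0.43, those in clusters of 2 to 9 (85 genes) at -0.21, -0.13 and -0.21 and the 15 single genes at -0.27, -0.17 and -0.29.

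Of 8 receptor genes fixed for being well studied, 4 had a window. Olfr16 had a top window of 0.46 and 0.26 in the TEAD4 samples with 2.39 in the control. Olfr78, a receptor for short-chain fatty acids also found in blood vessels and the carotid body, was at -0.25 and -0.03 with -0.95. V1rb2, a pheromone receptor for 2-heptanone, was at 0.14 and -0.38 with -1.09, and Tas2r105, the cycloheximide receptor, at -0.24 and -0.38 with -0.58. None of them passed 2-fold in a TEAD4 sample in these windows. Limma called Olfr16, V1rb2 and Tas2r105 lower than input (adjusted p = 0.0183, 0.0185 and 0.0317) and did not call Olfr78 (0.235). These calls join all windows of a gene and take their direction from the window of lowest p, not from the top window given here.

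The genes that work beside the receptors were mostly higher than the receptor genes. A list of 64 genes of olfactory, vomeronasal and taste signalling, receptor transport, receptor choice and other chemoreceptors had 56 genes with a window, whose gene medians had a median of -0.07, -0.02 and 0.27. Of these, 2 (3.57%) passed 2-fold in both TEAD4 samples, against 5.2% of all genes. Limma called 9 (16.1%) higher and 9 (16.1%) lower than input, against 23.9% and 11.8% of all genes. Ric8b, an exchange factor for the olfactory G protein, was at 1.20 and 1.91 with 0.94 in the control. Ldb1, a cofactor that joins Lhx2-bound enhancers, had its highest mean at 0.93 and 2.63 with -0.86 in the control, and passed in another window. Of the 13 regulators of receptor choice 4 (30.8%) were called higher and 1 (7.69%) lower, near those shares of all genes, and the medians of their genes were 0.08, 0.04 and 0.41.

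The trace amine-associated receptors (Taar) and formyl peptide receptors (Fpr), with the calcium-sensing receptor Casr, were an exception within that list. These 19 genes, which also encode receptors but fall outside the symbols of the set, had gene medians of -0.34, -0.16 and -0.44. That is close to -0.37, -0.19 and -0.42 in the receptor genes. Limma called 6 of them (31.6%) lower and 1 (5.26%) higher, against 11.8% and 23.9% of all genes. A median window below 0 in all 3 samples was held by 13 (68.4%), against 18.9% of all genes.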

How the data were processed

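ChIP-chip was measured in 2 TEAD4 samples and 1 control sample, each on 2 Agilent promoter array designs with IP DNA in Cy5 and input DNA in Cy3, 4 µg each, per the labels' protocols. The deposited intensity values come from Agilent Feature Extraction (version 9.5.3.1 per the file headers): background-subtracted, spatially detrended and scaled by a linear dye factor. The deposited log10 ratios of the authors' series matrix equal those of the scanner files and were not used further. No source used here gives the genome build.

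The log2 ratio of processed IP to processed input was taken for each spot, and the median of the array was subtracted. Non-uniform spots on any array, probes lacking a position and control spots were left out, among them 71 receptor probes. Windows were fitted within each design with limma 3.58.1 in R 4.3.3 (1 residual degree of freedom; prior 13.3 and 13.9), with the control sample assumed to vary like the TEAD4 samples. The windows of a gene were joined into a Simes p, adjusted by Benjamini-Hochberg over all 16533 genes. The rule of size was 2-fold in the same window of both TEAD4 samples and has no test. The fit was tested on simulated data.

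Receptor symbols were matched to RefSeq names of GRCm38.p6: 1006 by accession, 11 by symbol, 10 by synonym and 7 not at all. Named were the genes that passed, the 3 highest and the lowest of each family, the 3 highest in the control, the 5 highest and 2 lowest against the control, 8 known genes and the listed genes that passed. Members and lists were chosen with earlier results of these data known. Alternatives were normexp, loess, equal spread (MAD), no centring, 1000 bp, 5 probes and other folds. Others left out probes dim in the input channel, probes shared with other genes, or a sample. The letters of the probes were not used, so sequence shared between family members was not tested.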

Additional observations from a re-analysis of the deposited data

How the results depend on the processing

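Of 74 values of the main results under alternatives, 49 stayed within 1.5 times (counts) or 1 SD between the TEAD4 samples (medians), and 25 moved. Of the medians, 0 changed sign. A count could only stay or move, so no reversal could be scored for it. The 4 genes past 2-fold in both TEAD4 samples (0.418%, against 5.2% of all genes) were 12 with MAD scaling (1.25% against 15.3%), 1 with 1000 bp (0.102% against 2.21%), 2 with 5 probes (0.233% against 3.73%), 19 at 1.5-fold (1.98% against 20.2%) and 0 at 3-fold (against 0.774%). Using a single TEAD4 sample gave 6 to 90 (0.626% against 8.04%, and 9.39% against 15.5%). The 427 genes past 2-fold in the control (44.6% against 85.6%) were 65 with normexp (6.78% against 23.0%), 116 with MAD scaling (12.1% against 46.3%), 223 without centring (23.3% against 68.8%), 262 with 1000 bp (26.7% against 73.0%), 254 with 5 probes (29.6% against 76.2%) and 241 at 3-fold (25.2% against 69.5%). The 37 genes called higher over input by limma were 11 with normexp (1.15% against 14.3%) and 60 with loess (6.26% against 31.8%), and the 437 called lower were 36 with normexp (3.76% against 0.484%). Both counts were 37 and 437 without the control arrays, a setting chosen after seeing the data. The 1 control sample adds no residual to the fit against input, so these counts could not differ. They are among the 49 and show no stability. Against the control, the 266 higher and 500 lower became 9 and 71 with normexp (0.939% and 7.41%, against 3.96% and 10.5%), 1 and 10 with MAD scaling (0.104% and 1.04%, against 0.774% and 0.200%), and 746 and 164 without centring (77.9% and 17.1%, against 50.5% and 46.0%). The order of receptor genes against all genes thus turned with normexp for higher calls and with MAD scaling for both. The median difference in TEAD4 was -0.41 with MAD scaling against -0.28, and in the control -0.038 with normexp, -0.37 with loess and -0.32 with MAD scaling against -0.70. Without sample 1 or 2 the TEAD4 difference was -0.19 or -0.37. Both lie within 1 SD by construction, since that SD comes from the same 2 samples. The cause of the changes was not tested. Leaving out shared probes, or probes dim in the input channel, moved no main value beyond these limits. In that channel at least 99.6% of receptor probes were well above background on every array, so few were removed. Probes dim in the IP channel were not left out, so their part was not tested. Of 275 values of named top windows 245 stayed within 1 SD of the gene's own 2 TEAD4 samples and 30 moved. This limit is widest where the 2 samples differ most, so staying within it does not show a stable value. Olfr889 went from 1.89 to 0.05 with 5 probes and still counted as within it. Of the genes past 2-fold, 0 changed sign. The slide or scan day as a block and limma without a TEAD4 sample were not run, since no batch held 2 arrays of a design and no residual degree of freedom was left. No paired analysis was possible because the control has 1 sample. The low IP signal over background of the control limits its values at receptor probes.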
